A study of Mus musculus with 4 samples.

Results

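The cells described here are the somite-stage paraxial mesoderm in the caudal part of the mouse embryo at E8.5. They were chosen from 4 single-cell RNA libraries by raw counts of unique molecular identifiers (UMIs, which mark single captured transcripts). A member passed the filters on cells (3000 genes, 7500 UMIs and no more than 7% of UMIs from mitochondrial genes), had 2 or more UMIs of Tcf15 and 2 or more of Meox1, and held no more than 2 UMIs of Tbx6 and no more than 2 of Mesp2 and Ripply2 together. The rule found 1831 of 20198 filtered cells (9.07%), out of 24239 deposited barcodes. The embryos came from intercrosses of Grhl3+/- mice on a C57BL/6 background. The WT group was 1 pool of cells from 5 Grhl3+/+ embryos, and the Grhl3-null group was 1 pool from 3 Grhl3-/- embryos. Each pool was run in 2 reactions, which gave WT libraries 1 and 2 and null libraries 1 and 2, and values in 4 libraries are given in that order. The reactions are repeats on a pool, so a p-value between the genotypes sets 1 pool against another, and differences among embryos are not part of its error.

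The libraries held 463, 399, 485 and 484 members. Their summed depth was 21978867, 20011752, 27346581 and 25461250 UMIs, and the median per cell was 34046, 39373, 43566 and 39727.5 UMIs. Pairs of libraries shared between 7 and 16 cell barcodes. The sex of the cells differed between the pools. Members with 3 or more UMIs of Xist and no more than 1 of the Y-linked genes, called female, numbered 336 and 283 in WT and 54 and 37 in Grhl3-null. Members with 2 or more Y-linked UMIs and no more than 2 of Xist, called male, numbered 45 and 38 in WT and 293 and 288 in Grhl3-null. Both signals at once were found in 65, 62, 96 and 107 members. High doublet scores (the top 5% of each library) were found in 250 members (13.7%), and 472 had 3 or more UMIs of Sox2, Foxf1, Epcam or Cdh5, or over 50 of Hbb-bh1, markers of other lineages. Sox2 alone reached that count in 298 members. All of these cells were kept in the main values.

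Somites are epithelial blocks that bud in pairs from the front of the presomitic mesoderm, where a Notch-driven oscillator, posterior Fgf and Wnt signals, and retinoic acid from the formed somites set the pace and place of each boundary. Mesp2 and Ripply2 mark mesoderm that is about to segment. A new somite has rostral cells, which express Tbx18, and caudal cells, which express Uncx. It later divides into the ventral sclerotome, source of the vertebrae, which forms under the influence of Shh, and the dorsal dermomyotome, source of muscle and dermis. Tcf15 (paraxis), a basic helix-loop-helix factor, is needed for the epithelial state of the somite, and Meox1 is a homeobox gene of the early somite.

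The sequences upstream of 4 genes are shown because later results turn on these genes: Meox2 and Aldh1a2 for the somite stage as a whole, Cer1 for the rostral cells and Pax1 for the sclerotome. Each line gives the 250 bases before the transcription start, from RefSeq on GRCm38.p6, with every CANNTG (the E-box core that basic helix-loop-helix factors can bind) and every TAATTA (a core that homeobox factors can bind) in capitals. Both motifs were searched on both strands and read the same on each.
Meox2, chr12:37108290-37108539, plus strand: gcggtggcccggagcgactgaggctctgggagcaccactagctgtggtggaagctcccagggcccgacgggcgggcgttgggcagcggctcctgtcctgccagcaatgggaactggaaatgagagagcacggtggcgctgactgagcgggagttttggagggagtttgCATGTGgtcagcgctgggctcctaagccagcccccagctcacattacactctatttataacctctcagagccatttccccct
Aldh1a2, chr9:71215539-71215788, plus strand: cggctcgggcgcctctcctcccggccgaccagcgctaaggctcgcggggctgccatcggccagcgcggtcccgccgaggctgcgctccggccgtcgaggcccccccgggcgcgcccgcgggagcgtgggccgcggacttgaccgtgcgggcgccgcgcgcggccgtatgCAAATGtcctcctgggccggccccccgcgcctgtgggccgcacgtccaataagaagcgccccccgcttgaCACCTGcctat
Cer1, chr4:82885152-82885401, minus strand: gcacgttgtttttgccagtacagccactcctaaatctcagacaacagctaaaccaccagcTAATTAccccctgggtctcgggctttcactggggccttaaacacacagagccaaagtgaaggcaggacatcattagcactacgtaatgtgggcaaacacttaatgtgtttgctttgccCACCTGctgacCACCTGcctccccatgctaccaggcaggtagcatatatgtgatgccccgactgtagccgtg
Pax1, chr2:147364744-147364993, plus strand: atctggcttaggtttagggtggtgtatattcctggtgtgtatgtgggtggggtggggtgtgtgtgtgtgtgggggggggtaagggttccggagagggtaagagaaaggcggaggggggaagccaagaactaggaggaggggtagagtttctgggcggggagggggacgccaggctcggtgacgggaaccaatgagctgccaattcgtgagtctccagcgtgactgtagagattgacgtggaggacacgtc
The Meox2 window lay inside the gene model Gm48617 and the Pax1 window inside an intron of a longer Pax1 transcript, and no annotated exon overlapped any of the windows. CANNTG stood 1 time upstream of Meox2 and 2 times upstream of Aldh1a2 and of Cer1, TAATTA stood 1 time upstream of Cer1, and neither was found at Pax1. Of 27025 promoter windows of this length 66.0% held CANNTG and 4.90% held TAATTA. Of the 685 genes called higher in somite-stage than in presomitic cells 476 were matched to a window, and 59.2% of those held CANNTG and 3.15% TAATTA. Of the 535 called lower 378 were matched, with 61.9% and 2.91%. A match describes letters and is not a bound site.

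The genes that chose the cells are described without a test. Expression is given as CPM, the UMIs of a gene divided by all UMIs of the class in that library and scaled to 1000000. Tcf15 was at 569, 517, 480.0 and 513 CPM in the 4 libraries and at 36.4 CPM on average in the other filtered cells. Meox1 was at 517, 435, 454 and 477 CPM and at 37.0 CPM elsewhere. Both genes were high in every library. The median member had between 20 and 23 UMIs of Tcf15 and between 18 and 21.5 of Meox1, depending on the library, and both genes reached 10 UMIs in 1318 members (72.0%). Just inside the rule, 96 cells had exactly 2 UMIs of the lower of the 2 genes and 66 had 3. Just outside it, 267 cells had 1 UMI of the lower gene and more of the other, and 265 cells had 1 of each. Of further cells with 2 or more UMIs of both genes, 477 were outside the limit on Mesp2 and Ripply2, and 495 others were outside the limit on Tbx6 alone.

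The label was checked against the other markers. Foxc2, a forkhead factor of paraxial mesoderm, was at 170.2, 159, 163 and 159 CPM, against 22.1 CPM in the other filtered cells. Aldh1a2, which makes retinoic acid, was at 251, 216, 223 and 233 CPM, against 30.3 CPM. Both genes were high in every library. Aldh1a2 had a UMI in 78.4%, 78.2%, 90.9% and 93.4% of the members, and in 3.26%, 12.9%, 10.2% and 12.8% of the endothelium cells (2 or more UMIs of Cdh5, 1 or more of Pecam1 and no more than 1 each of Tcf15 and Meox1), a type that should lack it, whose median depths were 35707.5, 34198, 34601 and 39177.5 UMIs. Foxc2 separated the cells less well, since 94.8%, 95.7%, 94.6% and 95.9% of the members and 72.8%, 77.4%, 74.5% and 72.3% of the endothelium cells had a UMI of it. Beside the markers, the genes with the largest ratios to the other filtered cells (5 CPM added to both levels) included Meox2, a homeobox relative of Meox1, with 6.56, Fst, which encodes the activin antagonist follistatin, with 5.56, Ebf1 with 5.21, and Dmrt2, a dermomyotome factor, below them. These ratios rank the genes of cells chosen by Tcf15 and Meox1 and are a description.

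Against presomitic cells, the somite-stage cells had higher levels of the somite transcription factors and lower levels of the posterior signalling genes. The 2560 presomitic cells had 3 or more UMIs of Tbx6, no more than 1 of Meox1 and no more than 2 of Mesp2 and Ripply2 together, and the libraries held 898, 865, 425 and 372 of them. A gene is said to have passed at an adjusted p under 0.05 in edgeR's quasi-likelihood test on the sums of each library and class, with library as a block, and to be called where its log2 fold change was also 1 or more in size. Both classes were chosen on these same cells, so genes that go with Tcf15, Meox1 or Tbx6 from cell to cell had to differ, and the counts describe the classes. Of 13663 genes tested 3168 passed as higher (23.2%) and 3042 as lower (22.3%), with 685 (5.01%) and 535 (3.92%) called.

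All 19 tested somite transcription factors outside the rule were higher, with a median log2 fold change of 4.21. Meox2 was at 34.3, 31.6, 45.9 and 48.6 CPM in somite-stage cells and at 0.274, 0.398, 0.477 and 0.340 CPM in presomitic cells, a log2 fold change of 6.69 ± 0.11 (SE, 4 libraries). Twist1, which promotes a mesenchymal state, was at 145, 136, 164 and 158 CPM against 5.39, 4.75, 8.73 and 6.12 CPM, a log2 fold change of 4.63 ± 0.07. Ebf1 was at 81.4, 74.3, 75.3 and 70.5 CPM against 4.84, 4.35, 3.20 and 3.51 CPM, a log2 fold change of 4.21 ± 0.06. No library of one class overlapped the other class for these 3 genes. Foxc1 differed less, with a log2 fold change of 0.81 ± 0.05. The value for Ebf2, 1.04 ± 0.35, depended on the genotype, since its presomitic levels were 7.42 and 7.74 CPM in WT and 1.05 and 1.13 CPM in Grhl3-null, against 8.69, 7.10, 10.8 and 9.11 CPM in somite-stage cells, and the interaction of class and genotype was 3.13 ± 0.22. Cer1, a secreted antagonist of Nodal and Bmp, was at 27.0, 29.9, 22.2 and 20.4 CPM against 0.0821, 0.0853, 0.0477 and 0 CPM. It was near 0 in presomitic cells, so its fitted log2 fold change of 8.49 ± 0.28 depends on the prior count of the fit.

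**Figure D1:**
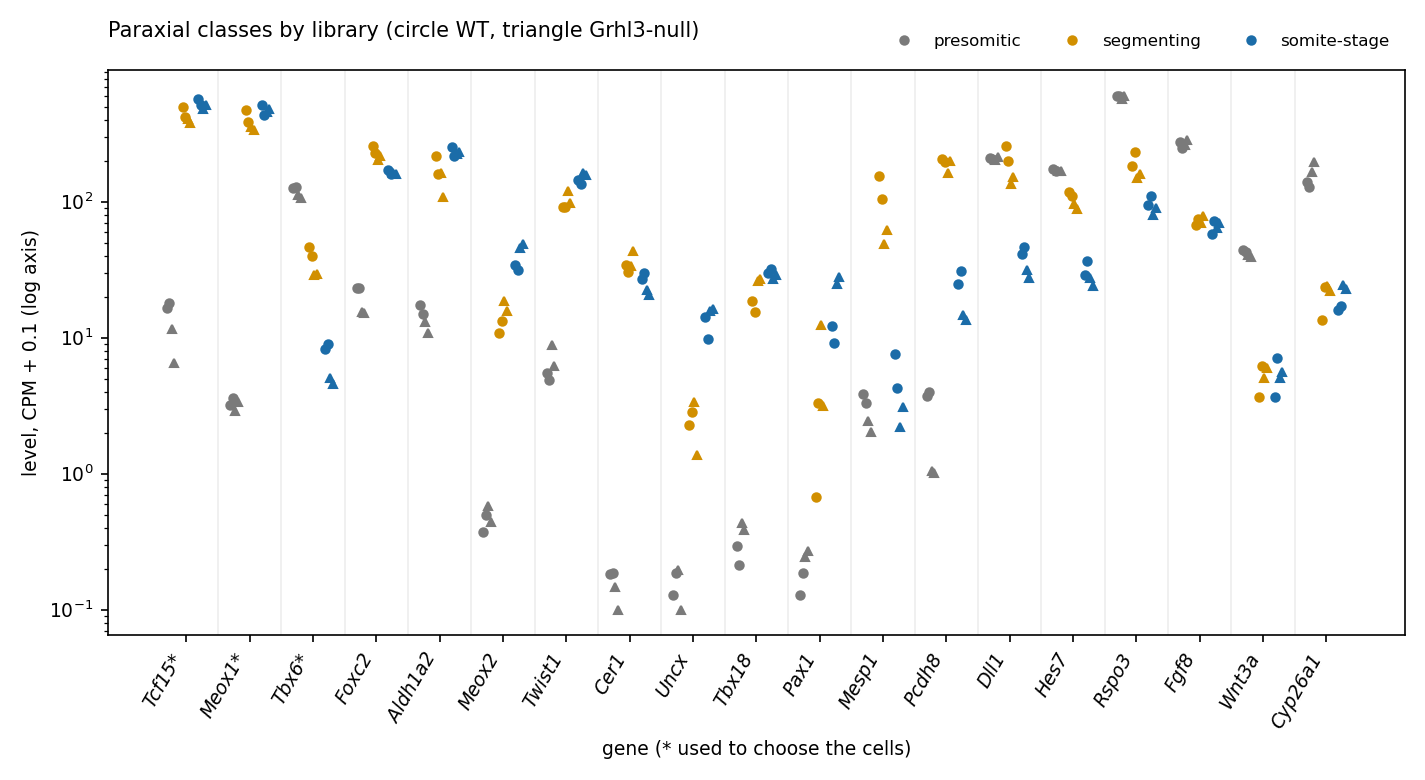
Level of each gene in presomitic, segmenting and somite-stage cells of each library, in CPM plus 0.1 on a log axis, with genes used by the rule marked by an asterisk (circles WT, triangles Grhl3-null). Meox2 and Twist1 are lowest in presomitic cells and highest in somite-stage cells in every library.

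Genes of both later compartments of the somite were higher than in presomitic cells. All 9 sclerotome genes tested passed as higher, among them the ventral paired-box gene Pax1, at 12.2, 9.04, 24.8 and 27.7 CPM against 0.0274, 0.0853, 0.143 and 0.170 CPM. Of 8 dermomyotome and myotome genes 7 were higher and the other did not pass. Pax3, a paired-box gene of the dermomyotome, was at 85.0, 79.9, 97.1 and 91.6 CPM against 10.5, 8.39, 13.5 and 14.9 CPM, a log2 fold change of 2.96 ± 0.08. Myf5, an early muscle-determining factor, was at 2.73, 1.35, 3.47 and 3.30 CPM against 0.192, 0.142, 0.191 and 0.227 CPM. None of the 3 overlapped between the classes. Myog, a later muscle gene, had no UMI in the members of any library.

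The genes of the presomitic mesoderm were lower together, all 12 that were tested, with a median log2 fold change of -2.54. Dkk1, a secreted Wnt antagonist, was at 9.42, 7.30, 5.38 and 4.24 CPM against 119, 123, 72.9 and 77.9 CPM, a log2 fold change of -3.89 ± 0.09. Wnt3a, a ligand of the tail end, was at 3.55, 6.95, 4.94 and 5.46 CPM against 43.9, 42.3, 40.5 and 38.9 CPM, a log2 fold change of -2.99 ± 0.11. Fgf8, a ligand that holds presomitic cells immature, was at 58.1, 72.0, 63.6 and 69.5 CPM against 275, 248, 263 and 284 CPM, a log2 fold change of -2.02 ± 0.05. None of the 3 overlapped between the classes. Of 16 Fgf pathway genes 11 were lower, and Fgf18, Fgfr1, Fgfr2 and Spry1 were higher. Of 22 Wnt pathway genes 15 were lower, among them the feedback gene Axin2 (-0.99 ± 0.05), and Fzd2, Fzd7, Sfrp2 and Sfrp5 were higher.

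The Notch and clock list was divided, with 10 of 18 genes lower and 6 higher. The ligand Dll1 was at 41.2, 46.0, 31.5 and 27.4 CPM against 209.9, 208, 204 and 215 CPM, a log2 fold change of -2.53 ± 0.12, and the oscillating repressor Hes7 was also lower (-2.54 ± 0.07). The receptors Notch1 and Notch2 and the effectors Hey1 and Heyl were higher, Heyl by 2.96 ± 0.20 on the log2 scale. The retinoic acid list was divided as well, with 6 of 16 higher and 6 lower. Aldh1a2 and Rdh10, which act in making retinoic acid, were higher by 4.04 ± 0.10 and 1.63 ± 0.11, as was the receptor gene Rarb by 2.15 ± 0.14. Cyp26a1, the enzyme that destroys retinoic acid, was at 15.9, 17.1, 24.3 and 22.5 CPM against 138, 128, 165 and 195 CPM, a log2 fold change of -2.96 ± 0.08. Its levels did not overlap between the classes.

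Of 13 hedgehog pathway genes 9 were higher and 0 lower. Gli1, a direct target of the pathway, was at 20.6, 18.9, 21.0 and 20.9 CPM against 8.87, 8.42, 9.78 and 11.1 CPM (log2 fold change 1.11 ± 0.08), and the receptor gene Ptch1 was higher by 0.67 ± 0.05. In the Bmp list 5 of 19 were higher, Fst among them (2.07 ± 0.16), and 8 lower. Of 17 adhesion genes 6 were higher and 8 lower, of 19 matrix genes 11 were higher and 4 lower, and of 15 axon guidance genes 8 were higher and 5 lower. Fbn2, which encodes a fibrillin of the matrix, was higher by 2.89 ± 0.05 and Ntn1, which encodes netrin 1, by 3.70 ± 0.05, whereas Fn1 (fibronectin) was lower (-0.79 ± 0.05). Mitosis genes were lower in 12 of 14, with a small median of -0.15, and of 14 DNA replication genes 6 were higher and 2 lower. Of 13 further genes in the study's own list of paraxial markers 12 were higher and Pcdh19 was lower (-0.20 ± 0.06), but the study chose that list on these samples, so it is no independent evidence.

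Markers of other cell types moved with the comparison. Of 7 neural markers 5 were higher, their summed level being 81.9, 94.0, 129 and 135 CPM against 57.9, 70.2, 113 and 111 CPM, with Sox2 the most abundant at 35.1 CPM on average and none of the 7 at 0. Of 7 endothelium markers 2 were higher, of 7 gut markers 1, of 5 notochord markers 3, of 7 surface ectoderm markers 2 with 2 lower, and of 9 lateral plate and intermediate mesoderm markers 4 with 3 lower. Genes induced by dissociation were higher in 6 of 9, their summed level being 252, 268, 230 and 232 CPM against 150.1, 150.1, 145 and 144 CPM. The part of these transcripts in the other differences was not tested. Without the cells that had a high doublet score, other-lineage markers or both sex signals, which among the members numbered 612, 683 genes were called higher and 819 lower.

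Segmenting cells had 3 or more UMIs of Mesp2 and Ripply2 together, and the libraries held 156, 147, 98 and 89 of them. Compared with these, the somite-stage cells had lower levels of Pcdh8 and of 8 of 18 genes of the Notch and clock list, Mesp1 among them. The genes of that list are called Notch genes below, though it also holds segmentation genes such as Mesp1. Of 19 somite transcription factors 11 were higher and 4 lower. Of 13663 genes tested 1293 passed as higher (9.46%) and 1444 as lower (10.6%), with 194 (1.42%) and 176 (1.29%) called, again between classes chosen on these cells. Mesp1, the relative of Mesp2, was at 7.46, 4.15, 2.12 and 2.98 CPM against 155, 104, 48.9 and 62.4 CPM in segmenting cells, a log2 fold change of -4.49 ± 0.10. Pcdh8, a protocadherin of the segment boundary, was at 24.8, 30.7, 14.5 and 13.5 CPM against 206, 195, 161 and 199 CPM, a log2 fold change of -3.27 ± 0.15. Neither gene overlapped between the classes. Lfng, which modifies Notch, differed by -2.38 ± 0.09 and Dll1 by -2.38 ± 0.13. Of 18 Notch genes 8 were lower and 1 higher, of 16 Fgf genes 9 were lower and 1 higher, and of 12 presomitic genes 7 were lower.

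The somite transcription factors were no longer uniform in this comparison, with 11 of 19 higher and 4 lower. Uncx was at 14.1, 9.69, 15.7 and 16.1 CPM against 2.18, 2.73, 3.28 and 1.27 CPM, a log2 fold change of 2.47 ± 0.19. Twist2, a relative of Twist1, was at 17.6, 18.5, 17.1 and 19.8 CPM against 3.32, 4.74, 6.69 and 5.57 CPM, a log2 fold change of 1.83 ± 0.17. Neither overlapped between the classes. Meox2 (1.43 ± 0.08), Pax1 (1.94 ± 0.28) and the collagen gene Col1a2 (1.51 ± 0.19) were also higher. Foxc2 was at 256, 228, 203 and 215 CPM in segmenting cells, above the members (-0.49 ± 0.06), and Foxc1 and Ebf1 were lower in the members too. DNA replication genes were higher in 12 of 14 and mitosis genes lower in 6 of 14, with medians of 0.15 and -0.08. The segmenting cells of the null libraries had median depths of 69053.5 and 60199 UMIs, against 43785.5 and 42483 in WT, and 37.8% and 36.0% of them held both sex signals, against 16% and 20.4% in WT. Of 7 neural markers 4 were higher in the members, with a summed level of 54.4, 50.2, 114 and 93.6 CPM in segmenting cells and Sox2 the most abundant, and of 7 gut markers 2 were higher (18.8, 56.3, 23.9 and 16.5 CPM, Spink1 the most abundant). Genes of the dissociation response were higher in 5 of 9, of which 3 were called, and lower in 1 (196, 197, 193 and 181 CPM). None of these genes was at 0. The part of depth, sex signals and these markers in the differences was not tested.

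Within the somite-stage cells, Uncx and Tbx18 were seldom found together. Uncx without Tbx18 was found in 394 cells, Tbx18 without Uncx in 742, both in 87 and neither in 608. A UMI of Uncx was seen in 24.6%, 19.3%, 29.9% and 30.0% of the members, and in 0 of 377 endothelium cells. That allows up to 0.796% of such cells to hold a captured UMI, and it does not limit the share that express the gene. A UMI of Tbx18 was seen in 40.6%, 43.4%, 47.6% and 49.0% of the members and in 1.09%, 2.15%, 0% and 1.06% of the endothelium cells. Uncx was seen in 10.5% of the members with Tbx18 and in 39.3% of those without. The cells with both genes had a median of 69412 UMIs, against 40174.5 with Uncx alone, 42175 with Tbx18 alone and 34312 with neither, and 18.4% of them had a high doublet score. The part of depth and doublets in these classes was not tested.

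The Uncx cells had higher levels of Notch effector genes, and the Tbx18 cells had higher levels of Pcdh8, Cer1 and Nrp2. The sums of cells with Uncx alone and with Tbx18 alone were compared within libraries, and since the cells were split on these genes the counts are a description. Of 11656 genes 191 passed as higher in Uncx cells (1.64%) and 225 as lower (1.93%), with 31 (0.266%) and 47 (0.403%) called. Plxna2, which encodes a semaphorin receptor, was at 45.2, 43.2, 46.9 and 46.7 CPM in Uncx cells and at 12.9, 13.5, 16.9 and 17.5 CPM in Tbx18 cells, a log2 fold change of 1.57 ± 0.08. Heyl was at 12.1, 10.1, 8.71 and 14.7 CPM against 0.923, 1.44, 0.523 and 0.759 CPM, a log2 fold change of 3.71 ± 0.23. Neither gene overlapped between the classes. Of 16 Notch genes 7 were higher, which were Dll1 (0.62 ± 0.10), Jag1 (0.47 ± 0.10), Nrarp (1.31 ± 0.09), Hes1, Hey1 (1.10 ± 0.09), Hey2 and Heyl, and Notch2 and Dll3 were lower. Dmrt2 (1.49 ± 0.09), Gadd45g (1.49 ± 0.10), Igfbp5 (1.34 ± 0.09) and Bmp3 (1.28 ± 0.11) were further genes of the Uncx cells.

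Pcdh8 was at 6.26, 9.77, 3.26 and 5.37 CPM in Uncx cells and at 32.1, 30.5, 17.7 and 15.5 CPM in Tbx18 cells, a log2 fold change of -1.97 ± 0.14. Cer1 was at 11.8, 16.4, 12.4 and 17.2 CPM against 40.2, 41.7, 30.1 and 26.1 CPM, a log2 fold change of -1.19 ± 0.12. The classes did not overlap for either gene. All 4 rostral genes tested were lower in Uncx cells, the others being Nrp2 (-0.88 ± 0.05), a semaphorin receptor, and Epha4 (-0.27 ± 0.06). Of 7 caudal genes 3 were higher, namely Dll1, Heyl and Efnb2 (0.88 ± 0.07), an ephrin. Lfng was at 6.03, 10.1, 7.46 and 14.4 CPM against 7.38, 7.31, 7.33 and 8.35 CPM and did not pass (0.33 ± 0.16). Lrrtm3 (-1.58 ± 0.13), Wnt16 (-1.11 ± 0.12) and Fli1 (-1.07 ± 0.11) were further genes of the Tbx18 cells.

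Some values of this split rest on few cells. Hba-x, a haemoglobin gene, was at 13.2, 9.14, 7.77 and 243 CPM in Uncx cells and 11.3, 9.10, 9.07 and 13.1 CPM in Tbx18 cells, and Hbb-bh1 was at 7.42, 5.04, 7.93 and 173 CPM against 6.23, 4.67, 8.11 and 8.27 CPM. Null library 2 alone was high for both, and without it the log2 fold changes were 0.01 for Hba-x and 0.09 for Hbb-bh1, in place of 2.43 ± 0.41 and 2.56 ± 0.42. Surface ectoderm markers were lower in Uncx cells in 3 of 4, their summed level being 9.97, 11.7, 15.7 and 7.11 CPM against 15.5, 30.9, 19.3 and 24.9 CPM, with Epcam the most abundant and none at 0. Gut markers were lower in 2 of 6 and notochord markers in 2 of 3. The part of these in the other differences was not tested.

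**Figure D2:**
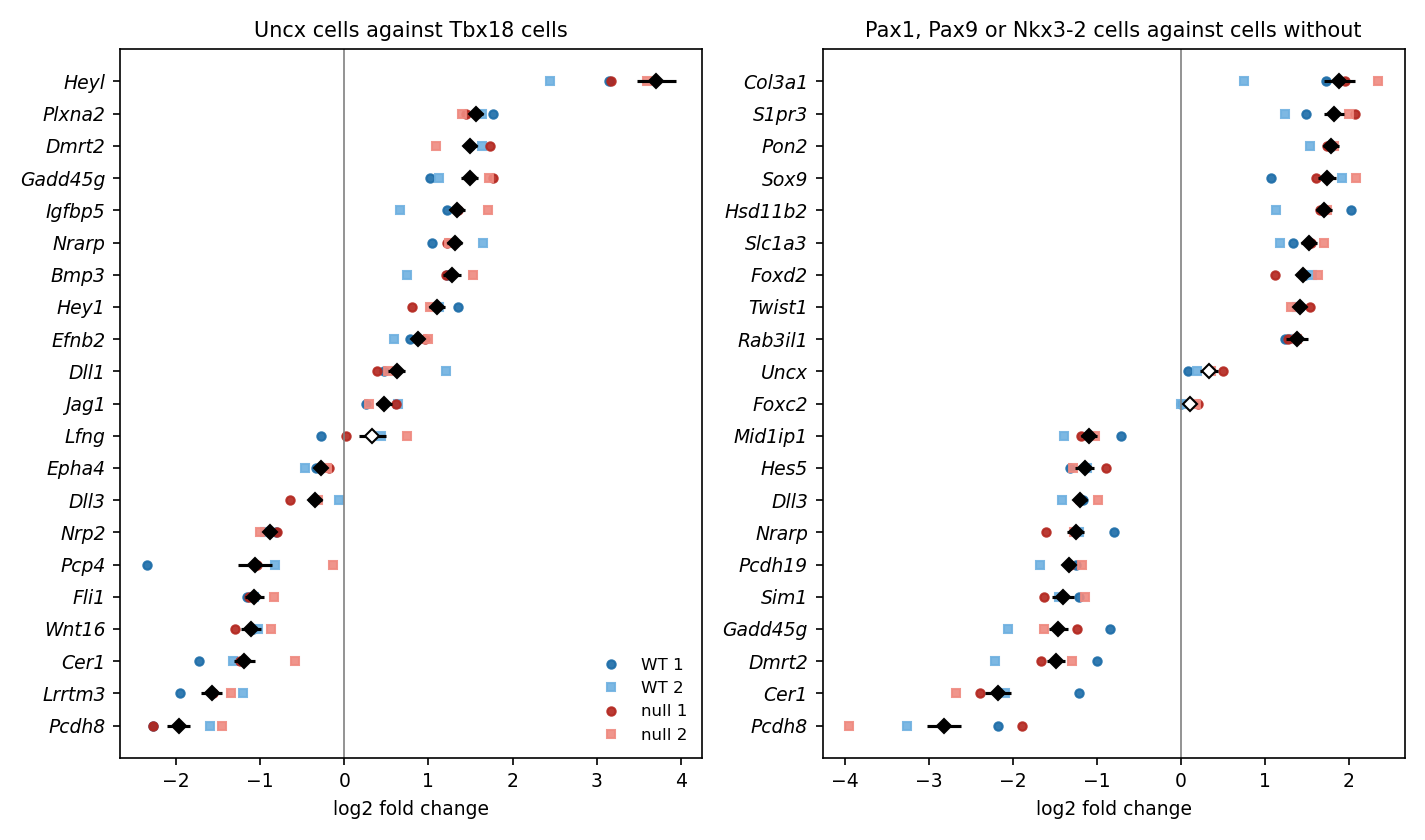
Log2 fold change between kinds of somite-stage cells, at left for cells with Uncx against cells with Tbx18 and at right for cells with sclerotome genes against cells without. Diamonds with bars are the fitted value and its SE (filled where the gene passed), and coloured points are single libraries with 0.5 CPM added. Heyl and Plxna2 lie to the right of 0 and Pcdh8 to the left in all 4 libraries.

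Sclerotome genes marked a further set of members. Pax1, Pax9 and Nkx3-2 together had 2 or more UMIs in 282 cells, 1 UMI in 135 and none in 1414. The 282 cells were 10.2% and 10.0% of the WT members and 19.4% and 20.9% of the null members. Of 12429 genes 446 passed as higher in them than in cells without (3.59%) and 345 as lower (2.78%), with 110 (0.885%) and 50 (0.402%) called, which describes cells split on these genes. Twist1 was at 306, 284, 343 and 293 CPM against 114, 108, 118 and 118 CPM, a log2 fold change of 1.42 ± 0.04. Sox9, the cartilage regulator, was at 37.5, 62.0, 65.3 and 78.7 CPM against 17.5, 16, 21.1 and 18.1 CPM, a log2 fold change of 1.75 ± 0.11. The levels of these genes did not overlap. Of 7 sclerotome genes outside the split 5 were higher, with Col2a1 (0.54 ± 0.08) and Mfap2 also among them, while Foxc2 did not pass (0.11 ± 0.04).

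Hedgehog targets were higher in the same cells, Hhip by 1.73 ± 0.18, Ptch1 by 0.62 ± 0.05 and Gli1 by 0.43 ± 0.08 on the log2 scale. Gli3 (-0.33 ± 0.06) and Gas1 (-0.40 ± 0.05), of the same pathway, were lower, and the other 8 of 13 did not pass. Of 18 Notch genes 11 were lower, Dll3 among them (-1.20 ± 0.08), and 1 was higher. Pcdh8 was at 5.90, 3.18, 4.10 and 0.712 CPM against 28.5, 34.9, 16.6 and 18.3 CPM, a log2 fold change of -2.82 ± 0.20, and Cer1 was lower by -2.18 ± 0.15. The levels of Pcdh8 did not overlap. The dermomyotome genes Pax3 (-0.70 ± 0.07), Dmrt2 (-1.49 ± 0.11) and Sim1 (-1.41 ± 0.13) were lower, Meox2 was higher (0.63 ± 0.08), and the other 4 of 8 did not pass. The collagen gene Col3a1 (1.89 ± 0.18) and S1pr3 (1.82 ± 0.12), which encodes a receptor of sphingosine phosphate, were higher, and mitosis genes were higher in 7 of 14.

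Markers of other cells moved with these cells too. Of 7 neural markers 3 were lower, with summed levels of 54.1, 86.3, 127 and 88.2 CPM against 84.7, 97.1, 134 and 148 CPM and Sox2 the most abundant, and of 8 lateral plate and intermediate mesoderm markers tested 2 were lower (66.3, 86.3, 68.1 and 68.9 CPM against 87.6, 108, 96.3 and 83.3 CPM, Osr1 the most abundant). Of 7 gut markers 4 were higher, their summed level being 88.5, 120.1, 96.0 and 32.6 CPM against 60.2, 28.5, 29.5 and 29.3 CPM, with Apela the most abundant and none at 0, and their part in the result was not tested. The cells with sclerotome genes had a median of 44389.5 UMIs, against 37727 in those without. Uncx was found in 36.2% and Tbx18 in 55.7% of them, against 24.4% and 42.7% of the cells without.

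The comparison of genotypes asks what goes with the loss of Grhl3, a transcription factor best known from the surface ectoderm, in these cells. Somite-stage cells were 8.48% and 7.80% of the filtered cells in the WT libraries, with exact binomial (Clopper-Pearson) 95% intervals of 7.76% to 9.25% and 7.08% to 8.57%. They were 10.0% and 10.1% in the Grhl3-null libraries, with intervals that began at 9.18% and 9.28%. The null libraries were higher by 1.93 percentage points and did not overlap with WT, and the exact permutation test gave p = 0.333, two-sided, the smallest that 2 libraries against 2 can give. The intervals cover counting error only. Without the cells that held markers of other lineages, which left fewer cells to count against, the shares were 15.4% and 13.9% in WT and 22.6% and 23.3% in Grhl3-null, a difference of 8.27 points. Over all deposited barcodes the difference was 0.717 points, the filters having kept 88.2% and 89.8% of WT and 78.4% and 77.4% of null barcodes. Presomitic cells were 16.4% and 16.9% of the WT and 8.78% and 7.78% of the null cells, so among the cells of the 3 paraxial classes the somite stage took 30.5% and 28.3% in WT and 48.1% and 51.2% in Grhl3-null.

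The difference had opposite signs in male and female cells. Of the male cells 3.57% and 3.15% in WT and 12.9% and 12.5% in Grhl3-null were somite-stage cells, 9.33 points more in the null libraries. Of the female cells the shares were 9.63% and 8.67% in WT and 2.97% and 2.18% in Grhl3-null, a difference of -6.58 points. Male and female cells are from different embryos, and how many embryos of each sex were pooled is not given in the sources used here, so the sex, the embryo and the genotype cannot be told apart in these shares.

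**Figure D3:**
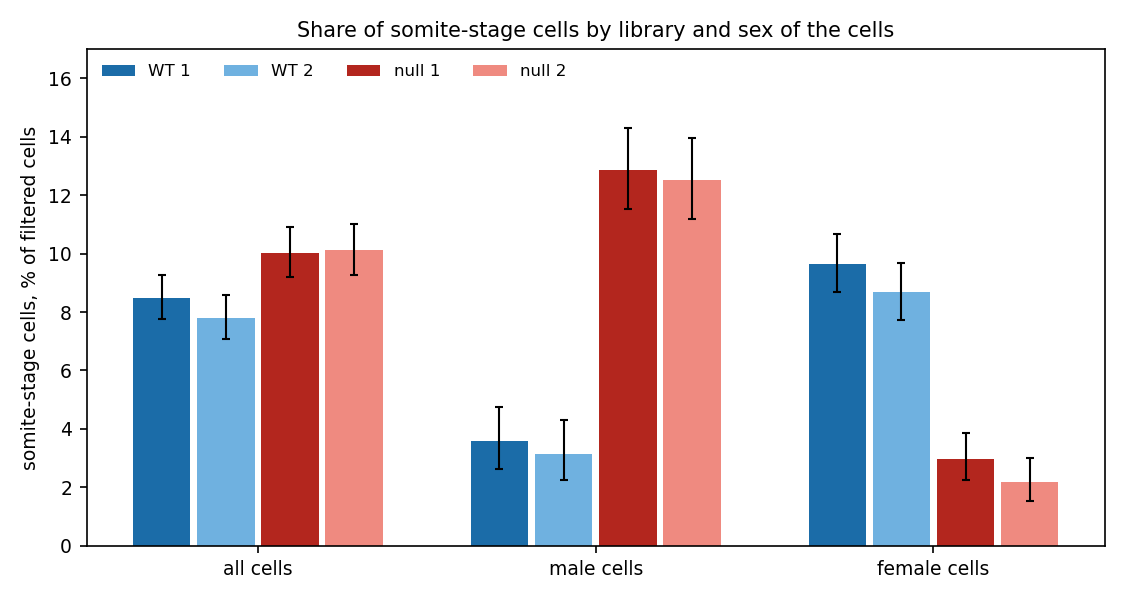
Somite-stage cells as a percentage of all, male and female filtered cells in each library, with bars from 0 and 95% Clopper-Pearson intervals. The null libraries lie above WT for all cells (10.0% and 10.1% against 8.48% and 7.80%) and for male cells, and below WT for female cells.

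In gene expression over all members, Foxc2 and Aldh1a2 did not pass between the genotypes, 5 of 9 sclerotome genes were higher in the null pool and 8 of 18 Notch genes lower. Neither held within female cells, where 0 sclerotome genes were higher and 4 lower, and 3 Notch genes were higher and 1 lower. With sex as a covariate 20 of 11351 genes passed in edgeR (0.176%), and 952 had an unadjusted p under 0.05. None of the 20 was in any of the lists, so every list count over all members below is lost in that fit. The fit gives the sexes a common genotype effect and treats male and female sums of a library as independent. Genotype effects that differ between the sexes add to its error, so a gene that did not pass in it may still differ. The median log2 fold change of the sclerotome genes was 0.269 over all members and 0.0668 with the covariate, against 0.00618 and -0.00288 over all genes tested. Grhl3 itself gave 32 and 18 UMIs in the WT and 1 and 0 UMIs in the null members, a level in the null of 1.59% of WT (exact 95% interval 0.0395% to 9.28%, counting error only). The gene lies at chr4:135541888-135573630 of mm10. Of 13250 genes tested 614 passed as higher in Grhl3-null (4.63%) and 787 as lower (5.94%), with 44 (0.332%) and 80 (0.604%) called, and 108 of the 124 called genes had a mean under 10 CPM. Foxc2 and Aldh1a2, whose levels stand above, had log2 fold changes of -0.05 ± 0.04 and -0.04 ± 0.06 and did not pass. Of the 13 further genes in the study's own list 4 were lower, which were Fgf18, Ppp1r1a, Pcdh19 and Pcdh8.

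Sclerotome genes were higher in 5 of 9 and lower in 0. Pax1 was at 12.2 and 9.04 CPM in WT and 24.8 and 27.7 CPM in Grhl3-null, a log2 fold change of 1.28 ± 0.10 (edgeR's quasi-likelihood test, adjusted p = 9.82e-06). Sox9 was at 20.6 and 22.3 CPM in WT and 30.0 and 32.5 CPM in Grhl3-null, a log2 fold change of 0.53 ± 0.06. The lowest null library was above the highest WT library for both genes. In female members alone Pax1 differed by -2.04 ± 0.38, and in male members 5 of the 9 were higher and 0 lower. With sex as a covariate Pax1 did not pass (0.36 ± 0.52), and 1 of the 9 genes had an unadjusted p under 0.05 in edgeR. Over all members Twist1 (0.18 ± 0.04) and Col2a1 (0.37 ± 0.07) were also higher. Of 19 somite transcription factors 8 were higher, with Meox2 (0.51 ± 0.05), Dmrt2 (0.54 ± 0.08), Ebf3 (0.51 ± 0.08) and Pax3 (0.18 ± 0.05) among them, and 1 was lower, while of 18 tested by sex 8 were higher in male and 7 lower in female null cells. Of 9 dermomyotome genes 4 were higher. Uncx (0.40 ± 0.12) and Tbx18 (-0.16 ± 0.06) did not pass.

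Of 18 Notch genes 8 were lower and 2 higher. Of 17 tested in male cells 6 were lower, and 16 were tested in female cells. With sex as a covariate 0 of 17 passed in edgeR and 6 had an unadjusted p under 0.05. Dll3, a Notch ligand needed for regular segments, was at 64.0 and 65.5 CPM in WT and 31.9 and 31.6 CPM in Grhl3-null, a log2 fold change of -1.04 ± 0.05 (edgeR's quasi-likelihood test, adjusted p = 1.74e-08). Dll1 was at 41.2, 46.0, 31.5 and 27.4 CPM in the 4 libraries, a log2 fold change of -0.57 ± 0.07. The genotypes did not overlap for either ligand, but with sex as a covariate Dll3 (-0.94 ± 0.27) and Dll1 (-0.89 ± 0.16) did not pass. Mesp1 (-1.21 ± 0.25), Hey1 (-0.33 ± 0.06) and Notch1 (-0.25 ± 0.04) were lower too, while Hes1 (0.18 ± 0.05) and Hes5 (0.49 ± 0.14) were higher. Of 11 presomitic genes 8 were lower, Dkk1 (-0.81 ± 0.16) and Fgf3 (-0.79 ± 0.15) among them, while 6 of 11 were lower in male and 1 of 11 in female cells. Their median log2 fold change was -0.435 over all members and -0.557 with sex as a covariate, where 0 passed in edgeR and 6 had an unadjusted p under 0.05. The rule limits raw UMIs of Tbx6, Mesp2 and Ripply2, so it is stricter in deeper cells, and depth differed between the libraries. The cells outside the limit on Tbx6 alone had a median of 72786 UMIs. The part of this limit in the presomitic, Notch and boundary genes was not tested separately. Of the boundary protocadherins Pcdh8 differed by -0.99 ± 0.09, and Pcdh19, at 153, 149.9, 106 and 104 CPM, by -0.54 ± 0.04. Both passed the interaction of genotype and sex (male minus female), with -1.91 ± 0.36 for Pcdh8 and -2.22 ± 0.12 for Pcdh19.

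Genes of the other pathways passed in smaller numbers, to be read beside the 4.63% and 5.94% of all genes that passed as higher and lower. In the hedgehog list Gli2 and Gli3 were higher and 11 of 13 did not pass, and in the retinoic acid list 3 of 16 were higher and 2 lower. The Fgf list had 1 of 16 higher and 3 lower, the Wnt list 1 of 22 higher and 5 lower, and the Bmp list 3 of 19 higher and 1 lower. Adhesion genes were higher in 3 of 17 and lower in 3, axon guidance genes higher in 3 of 15 and lower in 1, and DNA replication genes higher in 1 of 14 and lower in 2. The replication genes differed by sex, with 6 of 14 higher and 0 lower in male null cells, 0 higher and 3 lower in female null cells, and 6 of 14 positive in the interaction of genotype and sex. Of the matrix genes Col1a1, Col1a2 and Col3a1 were higher and Fn1 lower, of 19. Of 14 mitosis genes 0 passed in edgeR.

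Stmn1, which encodes the microtubule-destabilising protein stathmin (chr4:134468320-134473843), was at 1029.8 and 1049 CPM in WT and 349 and 410.0 CPM in Grhl3-null, a log2 fold change of -1.47 ± 0.05 (edgeR's quasi-likelihood test, adjusted p = 3.2e-09). The deacetylase gene Hdac1 (chr4:129516104-129542713) was at 149 and 149 CPM against 63.8 and 64.9 CPM, a log2 fold change of -1.22 ± 0.04. Both were far apart between the genotypes and both lie within 10 Mb of Grhl3, as did 8 of the 124 called genes (6.45%), against 1.64% of all genes tested. Pax6, a gene of the neural tube, was at 4.87 and 5.45 CPM against 16.8 and 15.7 CPM (1.65 ± 0.10), and the guidance cue Sema3a at 12.1 and 13.3 CPM against 25.5 and 26.5 CPM (1.02 ± 0.07). Xist was at 548 and 538 CPM against 244 and 214 CPM, and the Y-linked Eif2s3y (1.87 ± 0.07) and Ddx3y (1.59 ± 0.08) were higher, beside the shares of male and female members given above.

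Markers of other cells moved with the genotype. Neural markers were higher in 6 of 7, their summed level being the 81.9, 94.0, 129 and 135 CPM given above, with Sox2 at 23.7, 31.9, 41.2 and 43.7 CPM. Their median log2 fold change was 0.553 over all members and 0.545 with sex as a covariate. Gut markers were lower in 3 of 7 (summed level 63.2, 38.8, 45.6 and 34.9 CPM, Apela the most abundant), surface ectoderm markers in 2 of 7 (53.9, 53.9, 44.4 and 30.2 CPM, Epcam the most abundant), and endothelium markers in 2 of 7 with 1 higher (70.5, 56.5, 49.4 and 56.5 CPM, Egfl7 the most abundant). Genes of the dissociation response were lower in 6 of 9, among them Fos (-1.59 ± 0.17) and Jun (-0.69 ± 0.06). The median of the dissociation genes was -0.688 over all members and -0.114 with sex as a covariate. Of 8 tested in male cells 0 were lower, and of 9 in female cells 2. None of these markers was at 0, and their part in the other differences was not tested. Haemoglobin genes summed to 36.4, 253, 143 and 146 CPM, with Hbb-y lower, and of 7 visceral endoderm genes 0 passed in edgeR. Without the cells with other-lineage markers 77 genes were called, without those with both sex signals 76, and without all doubtful cells 75.

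Within the male and within the female members, most genes that passed in both sexes differed between the genotypes in opposite directions. Of 11186 genes tested in both sexes 151 passed in both, 127 of these with opposite signs (84.1%), of which 94 were higher in male and lower in female null cells. In male cells 417 of 11496 genes passed (3.63%) and in female cells 573 of 11373 (5.04%). The male levels of Pax1 were 20.6, 3.12, 35.7 and 40.1 CPM and its female levels 14.1, 11.6, 4.54 and 0.581 CPM. Its log2 fold change was 1.64 ± 0.36 in male and -2.04 ± 0.38 in female cells, and the interaction of genotype and sex was 3.69 ± 0.66 (edgeR's quasi-likelihood test, adjusted p = 0.004). The male level of WT library 2 and the female level of null library 2 rest on 38 and 37 cells. Members with 2 or more UMIs of the sclerotome genes numbered 4 and 2 of the male WT, 63 and 71 of the male null, 34 and 30 of the female WT and 2 and 0 of the female null cells.

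In the interaction of genotype and sex, 11 of 18 somite transcription factors passed as more raised in male cells and 0 as less (4.5% and 3.11% of all genes tested), against 3 and 4 of the 13 genes in the study's own list. Twist2 had male levels of 10.3, 8.32, 22.8 and 26.8 CPM and female levels of 20.5, 23.1, 6.48 and 3.49 CPM, with log2 fold changes of 1.40 ± 0.21 and -2.0 ± 0.24. Uncx differed by 1.72 ± 0.30 and -1.38 ± 0.27, and Meox2 by 0.85 ± 0.15 and -0.69 ± 0.13. Pcdh19 went the other way, with male levels of 216, 248, 81.2 and 82.8 CPM and female levels of 155, 145, 229 and 271 CPM, and log2 fold changes of -1.49 ± 0.08 and 0.73 ± 0.08. Cer1 differed by -1.32 ± 0.21 in male and 0.85 ± 0.10 in female cells.

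The difference itself was tested as an interaction over 11928 genes, of which 537 passed as more raised in male cells (4.5%) and 371 as less (3.11%), with 152 (1.27%) and 147 (1.23%) called. Dll3 differed by -1.78 ± 0.11 in male cells and by -0.12 ± 0.10 in female cells, where it did not pass, and the interaction was -1.65 ± 0.15. Of 1372 genes that had passed over all members and were tested for the interaction 342 passed it. As above, sex and embryo cannot be told apart.

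Markers of other cells moved with the genotype within each sex as well. Of 7 surface ectoderm markers 3 were lower in male null cells and 4 were called lower in the interaction, their summed level being 106, 124, 57.8 and 34.2 CPM in male and 39.2, 30.6, 77.8 and 16.3 CPM in female cells, with Epcam the most abundant. Of 7 neural markers 4 were higher in female null cells and 2 were called lower in the interaction, with summed levels of 45.6, 109, 81.4 and 73.6 CPM in male and 58.3, 74.1, 132 and 119 CPM in female cells and Sox2 the most abundant. Haemoglobin genes were called lower in the interaction in 5 of 6, with a median of -7.77, against -0.00152 over all genes tested. They summed to 47.0, 2374, 28.6 and 268 CPM in male and 35.4, 27.8, 1039 and 30.2 CPM in female cells, with Hba-x the most abundant, so WT library 2 stood far above the others in male cells and null library 1 in female cells. None of these markers was at 0 in either sex, and their part in the differences by sex was not tested.

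A smaller set had the same sign in both sexes, 14 genes higher and 10 lower in the null. Stmn1 differed by -1.41 ± 0.07 in male and -1.48 ± 0.07 in female cells, and Hdac1 by -0.79 ± 0.07 and -1.27 ± 0.08. Tcea3, a transcription elongation factor gene (chr4:136247729-136274898), was at 13.4, 11.6, 3.88 and 4.24 CPM over all members and differed by -1.93 ± 0.34 and -1.22 ± 0.26. Dll1 differed by -1.17 ± 0.19 and -0.54 ± 0.15, but it was close to the threshold in female cells (edgeR's quasi-likelihood test, adjusted p = 0.0498) and had an adjusted p of 0.0971 with sex as a covariate. Of the 24 genes 10 lay on chromosome 4 and 9 within 10 Mb of Grhl3, against 6.29% and 1.67% of the genes tested in both sexes. Of the 20 genes that passed with sex as a covariate 17 were among these 24. Gm10036, named after its values were seen and annotated as a processed pseudogene, was at 5.69, 4.45, 334 and 298 CPM. Gm10093, named and annotated likewise, differed by 7.32 ± 0.40 in male and 5.21 ± 0.22 in female cells. Both counts are uncertain because a pseudogene shares sequence with the gene it was copied from. Whether reads of Hdac1, or of other genes lower in the null, were assigned to a pseudogene was not tested.

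**Figure D4:**
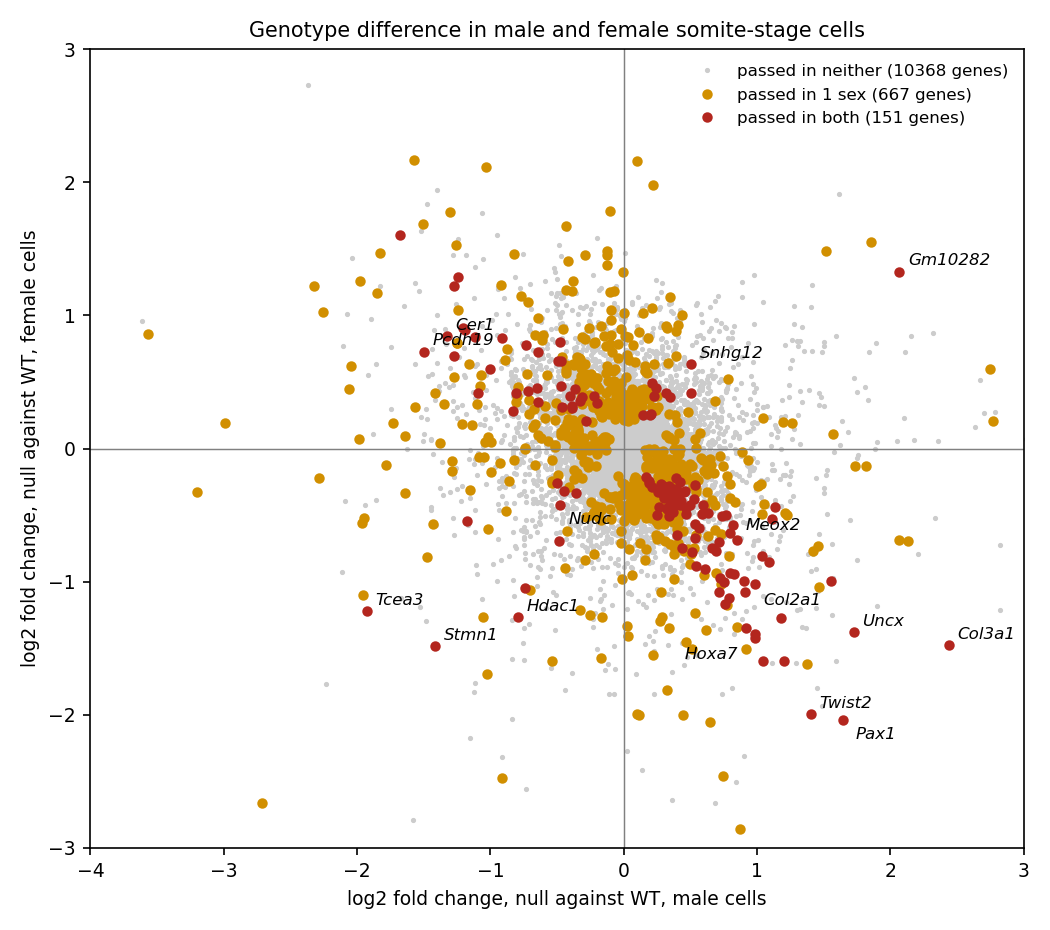
Log2 fold change of Grhl3-null against WT in male cells (horizontal) and female cells (vertical), 1 point per gene, for 11169 of the 11186 genes tested in both sexes (17 lie outside the axes). The 151 genes that passed in both lie mostly where the signs are opposite, as Pax1 and Pcdh19 do, while Stmn1, Hdac1 and Tcea3 are below 0 on both axes.

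The Hox genes, which give cells their position along the body axis, differed by class and by genotype. Of 32 tested against presomitic cells 22 were lower in somite-stage cells, and 4 were higher, Hoxa5, Hoxb5 and Hoxb7 among them, with Hoxa5 at 73.2, 78.2, 91.1 and 92.3 CPM against 32.3, 36.1, 35.7 and 38.8 CPM (1.22 ± 0.06). Between the genotypes 7 of 31 were higher in null somite-stage cells, which were Hoxa3, Hoxa5, Hoxb3, Hoxb4, Hoxb8, Hoxc4 and Hoxc5, and 11 were lower. Of 26 tested in male cells 2 were higher and 2 lower, and of 29 in female cells 4 were higher and 5 lower. The interaction of genotype and sex was positive (more raised in male cells) for 3 of 29, among them Hoxa7, which differed by 0.99 ± 0.09 in male and -1.42 ± 0.10 in female cells, and negative for 7, among them Hoxa5 (-0.62 ± 0.11) and Hoxb1 (-0.98 ± 0.20). The genes that were lower included Hoxb1 (-0.43 ± 0.07), an anterior member of the family, and Hoxa7 (-0.42 ± 0.04). Hoxc10, a posterior gene, was at 13.5 and 10.8 CPM in WT and 2.05 and 0.668 CPM in Grhl3-null (-3.15 ± 0.26). Hoxc9 was at 51.5 and 49.3 CPM against 29.0 and 26.0 CPM (-0.88 ± 0.06), and Hoxd9 at 19.5 and 20.1 CPM against 9.22 and 8.56 CPM (-1.16 ± 0.08). The genotypes did not overlap for these 3 genes. With sex as a covariate none of the 3 passed (-1.51 ± 0.44, -0.56 ± 0.18 and -0.92 ± 0.31), and of 27 Hox genes 0 passed in edgeR and 8 had an unadjusted p under 0.05. Hoxc9 and Hoxd9 passed in female cells (-0.79 ± 0.12 and -1.57 ± 0.19) and not in male cells (-0.22 ± 0.30 and -0.17 ± 0.45), but the interaction did not pass for either.

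The genotype difference was then set beside that in presomitic cells. There Hoxc10 was at 91.0 and 93.1 CPM in WT and 2.24 and 1.47 CPM in Grhl3-null, a log2 fold change of -5.62 ± 0.10. Of 13393 genes tested in presomitic cells 1296 passed as higher (9.68%) and 1571 as lower (11.7%), with 118 (0.881%) and 79 (0.59%) called. The difference between the classes was tested as an interaction of class and genotype with library as a block, and of 13695 genes 177 had a higher null-to-WT ratio in somite-stage cells (1.29%) and 250 a lower one (1.83%), with 21 (0.153%) and 46 (0.336%) called. The interaction was 2.48 ± 0.27 for Hoxc10. Of 33 Hox genes tested for it 5 passed as higher, Hoxc10 among them, and 9 as lower, among them Hoxc9 and Hoxd9. Foxc2, at 23.0, 23.1, 15.4 and 15.0 CPM in presomitic cells, had an interaction of 0.56 ± 0.06, Aldh1a2 of 0.40 ± 0.08 and Fst of 0.99 ± 0.09. Of the 13 further genes in the study's own list 7 passed this interaction as higher and 2 as lower, Fgf18 and Pcdh19. Dll1, at 209.9, 208, 204 and 215 CPM in presomitic cells where the genotypes did not pass as different (-0.01 ± 0.03), had an interaction of -0.57 ± 0.07, and Dll3 of -0.54 ± 0.05. Markers of other cells moved with this interaction, which was lower for 4 of 7 gut, 3 of 7 surface ectoderm, 2 of 7 endothelium and 2 of 7 neural markers. In null presomitic cells all 7 gut markers were higher, as were 5 of 7 neural and 4 of 7 visceral endoderm markers. The gut markers summed to 28.0, 24.4, 53.1 and 60.5 CPM in presomitic cells, with Apela the most abundant and none at 0, against the levels in somite-stage cells given above. The part of these markers in the interaction was not tested. Stmn1 and Hdac1 were lower in null presomitic cells too (-1.50 ± 0.06 and -1.26 ± 0.04). Male cells were 23.3% and 24.5% of the WT and 30.1% and 31.7% of the null presomitic cells, against 9.72%, 9.52%, 60.4% and 59.5% of the somite-stage cells. Of 238 genes that passed in both sexes in presomitic cells 24 had opposite signs.

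**Figure D5:**
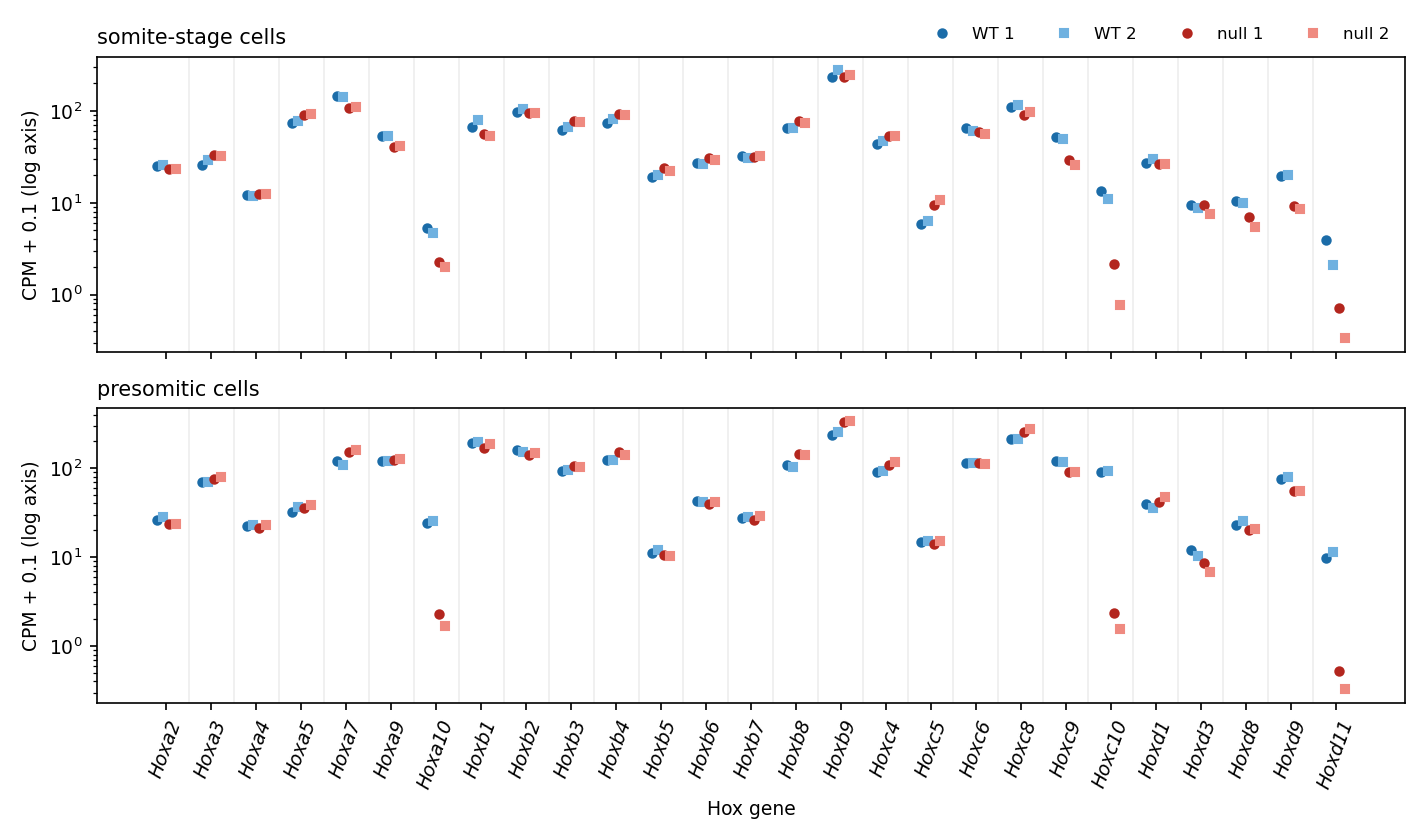
Level of 27 of the Hox genes with a mean of 1 CPM or more in somite-stage cells, in somite-stage (top) and presomitic cells (bottom) of each library, in CPM plus 0.1 on a log axis. Hoxc10 is lower in both null libraries than in both WT libraries in either class.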

How the data were processed

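Single-cell RNA was measured in 4 libraries made from caudal tissue at E8.5, 2 from a WT pool and 2 from a Grhl3-null pool. The authors deposited UMI counts per gene and barcode, made with Cell Ranger 3.0.0 on mm10. Barcodes with under 3000 genes, under 7500 UMIs or over 7% mitochondrial UMIs were left out here. Doublets were scored with Scrublet in scanpy 1.11.5. Its own threshold marked at most 0.0627% of a library, so the top 5% of scores were treated as doubtful. Counts were summed per library and class and tested with edgeR 4.0.16 in R 4.3.3 (TMM, filterByExpr, quasi-likelihood, Benjamini-Hochberg adjustment over all genes tested), with library as a block between classes and no block between genotypes. The SE of a log2 fold change was taken from the fit's F. On simulated counts for 12010 genes of the genotype comparison 199 of 200 changed genes were recovered, with 2 wrong calls. Recovery of genes with a log2 fold change under 1 in size, which pass by adjusted p alone, was not tested. The counts are from the 3' end, so levels were not divided by gene length.

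The members, the gene lists and the tests were chosen with earlier results of these data known. Genes named are those of the lists, the 10 called genes with the largest log2 fold change in each direction at a mean of 10 CPM or more (gene models without a name and genes of the rule left out), and the 10 with the largest ratio to other cells at 20 CPM or more, of which not all are printed. Some genes of the lists are counted but not reported by name here. Interaction tests of genotype and sex and the genotype test in presomitic cells were added after the data were seen. DESeq2 1.42.0, RLE scaling, no filter on low counts, thinning to 7500 UMIs, other cell filters, the sexes apart and leaving out each library were tried as alternatives.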

Additional observations from a re-analysis of the deposited data

Results flagged for a closer look

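The genotype difference in the share of somite-stage cells was 9.33 percentage points in male cells and -6.58 points in female cells, which drew attention because every library moved one way in one sex and the other way in the other. The difference between the sexes was not tested beyond this.

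Genes whose genotype log2 fold change differed between somite-stage and presomitic cells in edgeR's interaction test drew attention for that difference, given here as somite-stage minus presomitic. It was 2.48 for Hoxc10, 1.56 for Eif2s3y, 1.37 for Ddx3y, 1.07 for Lpl, which encodes lipoprotein lipase, 1.02 for Pcdh8 and 1.02 for S1pr3. It was -1.71 for Nr2f1, a nuclear receptor gene, -1.44 for Xist, -1.34 for Cldn6, -1.21 for Krt19, -1.14 for Krt18 and -1.14 for Apela, of which Cldn6, Krt18 and Krt19 are genes of epithelia. The sign changed for Pcdh8 in male cells (-1.11), for S1pr3 in female cells (-0.63) and for Apela against presomitic cells with 5 or more Tbx6 UMIs (0.16). Nr2f1 was at 38.1, 44.7, 57.6 and 59.3 CPM in somite-stage and 1.04, 1.37, 4.53 and 6.75 CPM in presomitic cells.

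The genotype log2 fold change also differed between male and female members in edgeR's interaction test, by 3.69 (male minus female) for Pax1, 0.48 for Hdac1, -1.65 for Dll3 and -4.43 for the haemoglobin gene Hbb-y, which was at 12.9, 25.9, 10.2 and 8.64 CPM over all members. Its levels were 19.1, 183, 7.88 and 8.87 CPM in male and 13.3, 9.52, 28.2 and 8.72 CPM in female cells, so 1 library stood apart in each sex, WT library 2 with 38 male cells and null library 1 with 54 female cells.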

How the results depend on the processing

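Counts here are genes called in either direction. Of the counts and shares recomputed under alternatives 85 stayed within 1.5 times (counts) or kept their direction (shares), 18 moved and 1 reversed, and of the values of named genes 1327 kept their direction and side of the threshold, 51 lost the call and 9 reversed; causes were not tested. The genotype count was 124, and it was 59 with DESeq2, 49 with cells thinned to 7500 UMIs (fewer genes tested), 77 without cells with other-lineage markers and 1401 by adjusted p alone. Among alternatives added after the data were seen it was 8 with sex as a covariate, 76 without cells with both sex signals and 75 without all doubtful cells. The count against presomitic cells was 1220 and by adjusted p alone 6210. The count against segmenting cells was 370, after thinning 193 and by adjusted p alone 2737. The interaction of class and genotype called 67 genes, 109 with no filter on low counts and 26 against presomitic cells with 5 or more Tbx6 UMIs. Between Uncx and Tbx18 cells 78 were called, 27 with DESeq2, 39 with no replicate block, 23 after thinning and 416 by adjusted p alone. For the cells with sclerotome genes 160 were called, 100 after thinning and 791 by adjusted p alone.

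Leaving out each library in turn gave 120 to 157 genes between genotypes, 1236 to 1276 against presomitic, 273 to 350 against segmenting cells, 51 to 88 for the interaction, 58 to 75 between Uncx and Tbx18 cells, 139 to 163 for sclerotome genes, and a difference in share of 1.59 to 2.27 points. The counts of the lists rest on genes past the adjusted p alone. Between genotypes these went from 1401 to 465 with DESeq2 and 323 after thinning. Between Uncx and Tbx18 cells 416 became 116 with DESeq2, 97 after thinning, 138 with no replicate block and 201 without null library 1. For sclerotome genes they went from 791 to 381, 269 and 389 with DESeq2, thinning and no replicate block. Against segmenting cells they went from 2737 to 608 after thinning and 1353 with no replicate block. Against presomitic cells they went from 6210 to 3083 after thinning. For the interaction of class and genotype they went from 427 to 203 with 5 or more Tbx6 UMIs in presomitic cells. With no filter on low counts they rose, to 1077 for sclerotome genes and 696 for the interaction. With 1 library left in a genotype, that library is assumed to vary like the others. The share difference reversed in female cells (-6.58 points) and was 8.27 points without cells with other-lineage markers. Pax1 reversed in female cells (-2.04), Xist in female cells (0.18) and with sex as a covariate (0.10), and Hbb-y in female cells (0.86) and with Tcf15 and Meox1 limits of 1 (1.94). In the interaction Pcdh8 reversed in male cells (-1.11), S1pr3 in female cells (-0.63) and Apela against presomitic cells with 5 or more Tbx6 UMIs (0.16), and Hba-x between Uncx and Tbx18 cells reversed without all doubtful cells (-0.25).

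Replicate numbers are shared by the genotypes, but they do not pair the samples: the deviations of the first replicates correlated at 0.064 over 7587 genes. A fit with the replicate block called 163 genes between genotypes. With no replicate block, that is without the library term of the comparisons between classes, 1196 genes were called against presomitic cells, 303 against segmenting cells and 123 for sclerotome genes. DESeq2 and thinning were not run for the interaction. Male and female sums of 37 to 54 cells limit the comparisons by sex.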
